A study of Mus musculus with 12 samples.

Results

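Knockdown of Mettl14 was compared directly with knockdown of Mettl3 in J1 mouse embryonic stem cells, using the m6A peaks that the authors listed for the knockdown libraries. Members were all listed peaks of the 4 knockdown IP libraries, counted once per position, without the rows that came from a scramble library alone. They numbered 19748 of the 33072 peaks listed over the 6 IP libraries of the series. The first Mettl14 knockdown library held 5717 of them and the second 4367, and the Mettl3 knockdown libraries held 5087 and 4577. Peaks of the 4 libraries that overlapped by at least 1 nt on the same strand were chained into 8106 regions, and each region was described by the libraries that listed a peak in it.

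The series holds 12 libraries, of which 2 IP libraries per knockdown are compared here. All cells were grown with serum and LIF on irradiated fibroblast feeders, and all carried a lentiviral shRNA, against Mettl14 or Mettl3 here and a scramble sequence in the controls, followed by puromycin selection of stable lines. Fragmented poly(A) RNA was pulled down with an antibody to m6A and sequenced in a single lane with all other libraries. The design text gives 1 biological replicate and the labels do not say whether numbered samples are separate cultures, so the spread between libraries may be technical. The libraries are called set 1 and set 2 by the scramble library they were listed with, and no label ties a set to a replicate number. Each fold enrichment is the authors' ratio of an IP library to its own control library, so the scramble library does not enter the comparison of the knockdowns.

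N6-methyladenosine is placed on mRNA by a nuclear writer complex. Mettl3 is its catalytic subunit, Mettl14 is the partner that holds the complex together and binds RNA, and Wtap, Virma, Zc3h13, Cbll1, Rbm15 and Rbm15b are further subunits. Reader proteins such as the Ythdf family bind the mark in the cytoplasm, and in embryonic stem cells the mark is known to affect the stability of transcripts of pluripotency and developmental regulators. The mark sits in a short motif of which GGACT is a common form, often near stop codons.

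The motif nearest to the peak summit is printed for selected transcripts of the comparison, to show the RNA at which the lists differ and at which they agree. Capitals mark GGACT, the strand is that of the gene, the sequence is from the GENCODE M21 transcripts, and positions are on GRCm38 (mm10). A motif is a match of letters and not a mapped methylation site. Listed with 1 knockdown only refers to the 4 knockdown libraries. Both scramble libraries listed the Cecr2 and Rnf126 regions, and that of set 1 alone listed the A4galt region. Neither scramble library listed the regions of Bcl2l1, Cobl and Utp6.
Bcl2l1, listed with Mettl14 knockdown only, chr2:152829874-152829902, minus strand, coding sequence: tcgaagagaataGGACTgaggccccagaa
Cecr2, listed with Mettl14 knockdown only, chr6:120761271-120761299, plus strand, coding sequence: aagggaaacagaGGACTcccaactcaaaa
A4galt, listed with Mettl14 knockdown only, chr15:83228115-83228143, minus strand, coding sequence: gatacgacctctGGACTtgcaagaactgt
Cobl, listed with Mettl3 knockdown only, chr11:12254362-12254390, minus strand, coding sequence: gggggaagctatGGACTcaagtatggcct
Utp6, listed with Mettl3 knockdown only, chr11:79935575-79935603, minus strand, 3' UTR: gagggtgtggatGGACTgcctcaaccctc
Rnf126, listed with Mettl3 knockdown only, chr10:79758981-79759009, minus strand, 3' UTR: cgccatggctgtGGACTagaggtgctgcc
Wtap, listed in all 4 libraries, chr17:12974763-12974791, minus strand, 3' UTR: caataagactgtGGACTtcatgattgttg
Ythdf3, listed in all 4 libraries, chr3:16204255-16204283, plus strand, coding sequence: caaggcatgactGGACTgaaaattggtgg
The motif lay 6 nt from the summit in Utp6, 2 nt in Wtap, 21 nt in Cobl, 32 nt in Cecr2 and 115 nt in Bcl2l1. In other regions of 1 knockdown only it lay farther away, at 679 nt in Dsp, 326 nt in Mllt4, 262 nt in Fiz1 and 245 nt in Topors. GGACT was present within 100 nt of the summit at 34.4% of Mettl14-only and 39.9% of Mettl3-only regions on transcripts.

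The tables give no total read count, so library depth is unknown. Tags inside listed peaks summed to 473900 to 533745 per library, and single peaks held 4 to 2151 tags. Neither Mettl3 nor Mettl14 had a listed peak, and peak lists do not measure mRNA level, so the knockdowns were not checked here. Of 12 embryonic stem cell markers, 3 or 4 had a listed peak in each library, and 8, among them Pou5f1 and Nanog, had none in any. Of 18 feeder fibroblast markers, 1 to 3 were listed per library, with 56 to 132 tags summed against 1776 to 2037 for the stem cell markers, and 14, among them Col1a1 and Vim, had none in any.

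Presence in all 4 libraries was the most common single pattern. A peak was present in all 4 libraries at 2433 regions (30.0% of 8106), and 2157 genes (43.5% of 4955 with any listed peak) were listed in all 4. Regions found in both Mettl14 knockdown libraries and neither Mettl3 knockdown library numbered 242 (2.99%), and the reverse 177 (2.18%). By genes the numbers were 131 for Mettl14 knockdown (2.64%) and 113 for Mettl3 knockdown (2.28%). Together, 419 regions (5.17%) were found in both libraries of 1 knockdown only, 655 were found in both libraries of 1 set only (516 of them in set 1), and 306 joined a Mettl14 library of one set with a Mettl3 library of the other. A further 3175 regions, more than those in all 4, were listed in a single library. These are counts with no test, and the length of each list enters them. The deposited FDR also bears on them: with peaks of at most 1% FDR in all 4 libraries, the counts were 54 regions for Mettl14 knockdown and 113 for Mettl3 knockdown, so the larger count moved from one knockdown to the other.

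**Figure D1:**
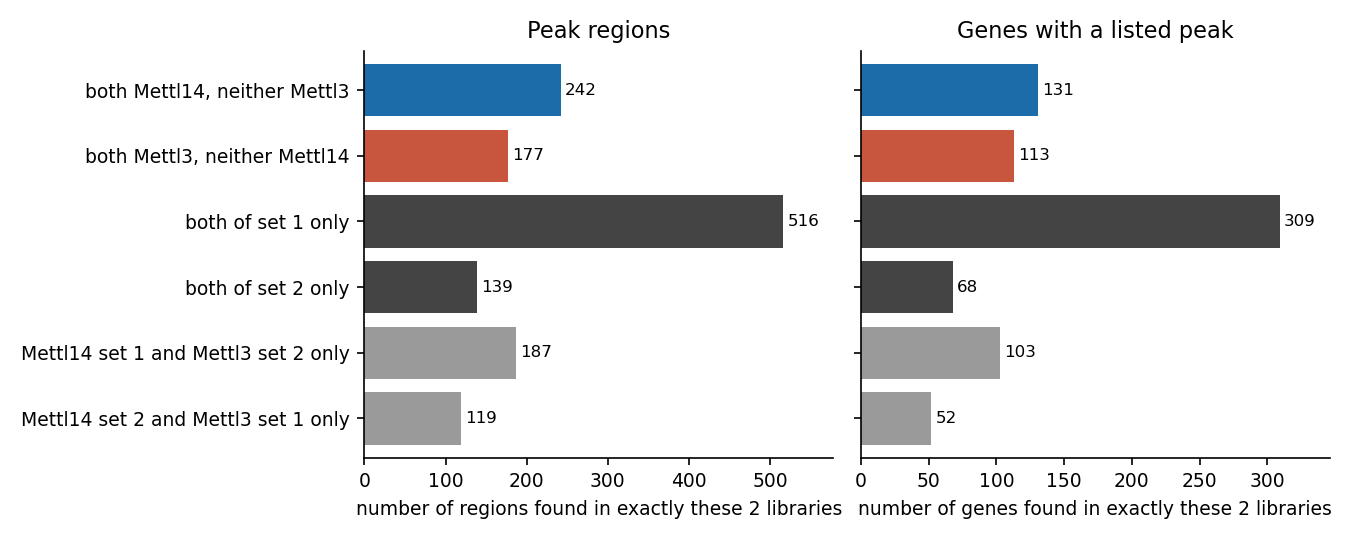
Number of regions (left) and genes (right) found in exactly 2 of the 4 knockdown libraries, by which 2. Blue and red bars are the libraries of 1 knockdown (242 and 177 regions), dark grey bars the libraries of 1 set (516 and 139 regions), and light grey bars share neither knockdown nor set (187 and 119 regions).

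Within a set, 30.2% of the Mettl14 knockdown peaks of set 1 (95% Wilson interval 29.0 to 31.4) had no overlapping Mettl3 knockdown peak, against 33.0% in set 2 (31.6 to 34.4). Of the Mettl3 knockdown peaks, 22.1% in set 1 (21.0 to 23.2) and 35.0% in set 2 (33.6 to 36.4) had no overlapping Mettl14 knockdown peak. With peaks of at most 1% FDR, the set 2 shares parted to 18.5% for Mettl14 and 49.2% for Mettl3, and those of set 1 were 27.7% and 22.0%. Wilson intervals cover counting error only. The same peaks set against the other library of their own knockdown gave 41.2% and 25.5% without overlap for Mettl14 and 33.0% and 26.3% for Mettl3. The set 1 peaks were looked up in a shorter list and the set 2 peaks in a longer one, which bears on how these shares rank. Peaks without a partner were low in tags: in set 1 of Mettl14 knockdown the median was 20 tags without and 78 with a Mettl3 knockdown peak. Libraries of the same knockdown had 54.9% (Mettl14) and 58.7% (Mettl3) of their covered length in common. Libraries of the same set had 62.4% (set 1) and 55.8% (set 2), and the pairs that share neither had 58.2% and 52.5%, so the 3 kinds of pair overlapped.

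Of the 131 genes listed with Mettl14 knockdown only, the first 12, ranked by the smaller of their tag counts, were Dsp, Topors, Bcl2l1, Mllt4, Eif1a, CAAA01083517.1, Fam98a, Csnk1d, Hspbap1, Lad1, Cecr2 and A4galt. Dsp encodes desmoplakin, which anchors intermediate filaments to desmosomes. Its coding-sequence region (chr13:38191384-38193768) held 352 tags in set 1 and 470 in set 2, with deposited enrichments of 4.39 and 5.48, and neither scramble library listed it. Topors, a ubiquitin and SUMO ligase, held 274 and 406 tags, and Mllt4, the junction protein afadin, held 231 and 280. Bcl2l1, which encodes the survival factor Bcl-xL, held 247 and 256 tags at enrichments of 3.77 and 4.47, also without a scramble peak. Enrichments at the regions of all 12 genes lay below the medians of 17.43 and 13.8 over all Mettl14 knockdown peaks. The genes were ranked by tags and not by enrichment.

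Eif1a, a translation initiation factor, held 229 and 211 tags with enrichments of 8.13 and 8.52, and the scramble library of set 1 listed it. Csnk1d, a circadian and Wnt pathway kinase, held 145 and 156 tags in its 3' UTR. Cecr2, a bromodomain subunit of chromatin remodellers, held 160 and 91 tags with enrichments of 10.93 and 7.08, and both scramble libraries listed it. Lad1, an anchoring filament protein, held 97 and 202 tags, and A4galt, the synthase of the glycolipid Gb3, held 85 and 215. Fam98a held 159 and 188 tags and Hspbap1 98 in each library. The summit of the region assigned to CAAA01083517.1 lay outside its annotated exons.

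Of the 113 genes listed with Mettl3 knockdown only, the first 12 by the same ranking were Fiz1, Safb2, Pus1, Ext1, Sf1, Tgif1, Dynll2, Rnf126, Utp6, Cobl, Men1 and Spnb3. Fiz1, a zinc finger protein, held 345 and 340 tags in its coding sequence (chr7:5007212-5009303), with enrichments of 5.80 and 6.55. Safb2, a nuclear matrix and RNA-binding protein, held 294 and 293 tags, and neither scramble library listed it. Pus1, a pseudouridine synthase, held 263 and 240 tags, and Sf1, which binds the branch point in splicing, held 234 and 199 at its stop codon. Utp6, a factor of ribosomal RNA processing, held 186 and 153 tags in its 3' UTR. Both scramble libraries listed the Fiz1 region, that of set 1 alone listed Pus1 and Sf1, and neither listed Utp6. Enrichments at the regions of all 12 genes lay below the medians of 18.83 and 12.9 over all Mettl3 knockdown peaks.

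Tgif1, a homeobox repressor of TGF-beta signalling, held 246 and 191 tags. Men1, which encodes menin, a partner of histone methyltransferases, held 142 and 129 tags in its 5' UTR with enrichments of 9.50 and 6.59. Ext1, a polymerase of heparan sulfate, held 219 and 221 tags with enrichments of 8.85 and 6.78. Dynll2, a dynein light chain, held 179 and 191 tags, Rnf126, a ubiquitin ligase, 164 and 182, Cobl, an actin nucleator, 130 and 199, and Spnb3, a beta spectrin, 137 and 122. Of the 24 named genes, Ext1 was the only one whose region remained with a deposited FDR of at most 1% in both libraries, at 0.34% and 0.22%.

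**Figure D2:**
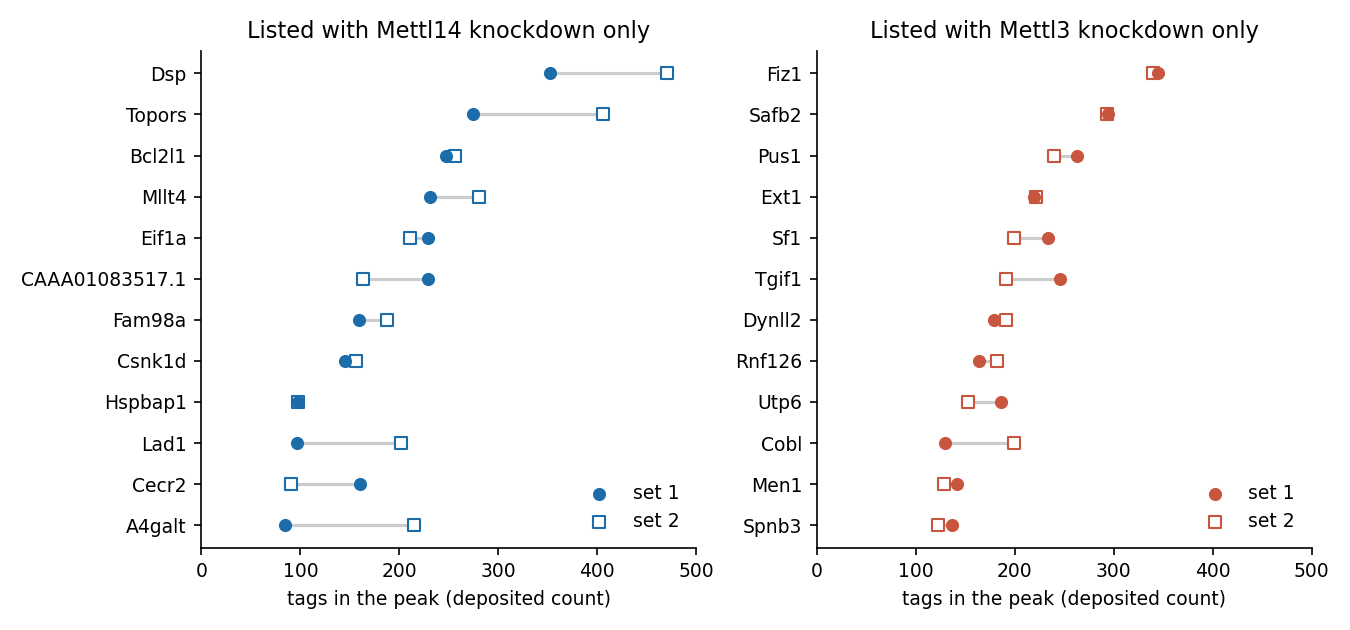
Deposited tag counts in the peak of each named gene listed with Mettl14 knockdown only (left, blue) or Mettl3 knockdown only (right, red), with filled circles for set 1 and open squares for set 2. Counts ran from 85 in A4galt to 470 in Dsp on the left and from 122 in Spnb3 to 345 in Fiz1 on the right.

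Some transcripts were listed in all 4 libraries but also carried a region of 1 knockdown only. For Mettl14 knockdown the first 8 were Tro, 1200011M11Rik, C230081A13Rik, Zfp462, Tmem115, Sh3bp5l, Sema3e and Pcdh1. Tro, which encodes the adhesion protein trophinin, held 267 and 345 tags, 4288 nt from the nearest Mettl3 knockdown peak. Sema3e, a secreted guidance cue, held 98 and 147 tags in its 5' UTR. For Mettl3 knockdown they were Smek1, Zfp710, Zdhhc8, Rccd1, N4bp3, Ppp1r9b, Ssfa2 and Fem1c. Smek1, a regulatory subunit of protein phosphatase 4, held 197 and 251 tags. Ppp1r9b, the actin-binding protein spinophilin, held 75 and 87 tags with enrichments of 9.83 and 19.48, and a Mettl14 knockdown peak lay 87 nt away. A peak of the other knockdown lay within 500 nt of 30 of the 242 Mettl14 regions (12.4%) and of 18 of the 177 Mettl3 regions (10.2%), and the other regions had no peak of the other knockdown that near.

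Regions of 1 knockdown only held fewer tags than those in all 4 libraries, as did the other regions found in 2 libraries. The median of the lower tag count was 24.5 for Mettl14 and 32 for Mettl3 knockdown, against 23 to 35 for the other 4 patterns of 2 libraries and 88 for regions in all 4. Median enrichment went the other way, at 27.4 for Mettl14 and 21.2 for Mettl3 knockdown. It was 19.4 to 32.6 for the other 4 patterns and 13.28 for regions in all 4. A peak with a deposited FDR above 5% was part of 60.3% of the Mettl14 regions, 53.1% of the Mettl3 regions, 41.3% to 61.5% of the other 4 patterns and 20.9% of those in all 4. Scramble lists were not used in the choice of regions. Both scramble libraries listed a peak at 32.6% of the Mettl14 regions, 48.6% of the Mettl3 regions, 28.1% to 43.4% of the other 4 patterns and 90.5% of the regions in all 4. Neither listed one at 83 Mettl14 regions (34.3%), among them those of Dsp, Bcl2l1, Mllt4 and Lad1. Neither listed one at 31 Mettl3 regions (17.5%), among them those of Safb2, Dynll2, Utp6 and Cobl. Both shares lay within the 15.9% to 43.9% of the other 4 patterns, whose libraries differ in knockdown. By genes, 43 of the 131 Mettl14 genes and 12 of the 113 Mettl3 genes had no listed peak in either scramble library (32.8% and 10.6%, against 10.0% to 33.8% for the other 4 patterns). No test of this difference was run, since regions of 2 libraries are not replicates of a knockdown.

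Regions of the 2 knockdowns were placed on coding transcripts by their summits. A window of 100 nt to each side of the stop codon's end held 7.9% of Mettl14-only summits, 20.1% of Mettl3-only summits and 14.8% of the summits in all 4 libraries, and 11.5% to 18.5% in the other 4 patterns of 2 libraries. Coding sequence outside that window held 63.3%, 47.5% and 65.0%, and 43.4% to 65.4% in the other 4 patterns. Over whole libraries the stop codon share was 15.5% and 12.9% in the Mettl14 libraries against 16.0% and 14.7% in the Mettl3 libraries (difference in means -1.12 percentage points, exact permutation test, two-sided, p = 0.667). The Mettl14 and Mettl3 values overlapped, and 0.333 is the smallest p that 2 libraries against 2 can give. GGACT was present within 100 nt of the summit at 34.4% of Mettl14-only, 39.9% of Mettl3-only and 39.7% of shared regions on transcripts, and at 28.6% to 41.7% in the other 4 patterns. Of all windows of 201 nt on the same transcripts, 19.6%, 20.9% and 21.7% held it. The reverse complement AGTCC, searched in the same windows, was present at 21.3%, 16.8% and 15.9%, and at 12.5% to 21.6% in the other 4 patterns. For both motifs and for coding sequence, the values of 1 knockdown only thus lay inside the range of library pairs that differ in knockdown. The stop codon shares lay outside it, at 14 of 177 Mettl14-only and 28 of 139 Mettl3-only summits, and this was not tested. In whole libraries GGACT was present at 40.0% and 37.7% of Mettl14 and 39.3% and 37.2% of Mettl3 knockdown summits (exact permutation test, two-sided, p = 0.667).

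**Figure D3:**
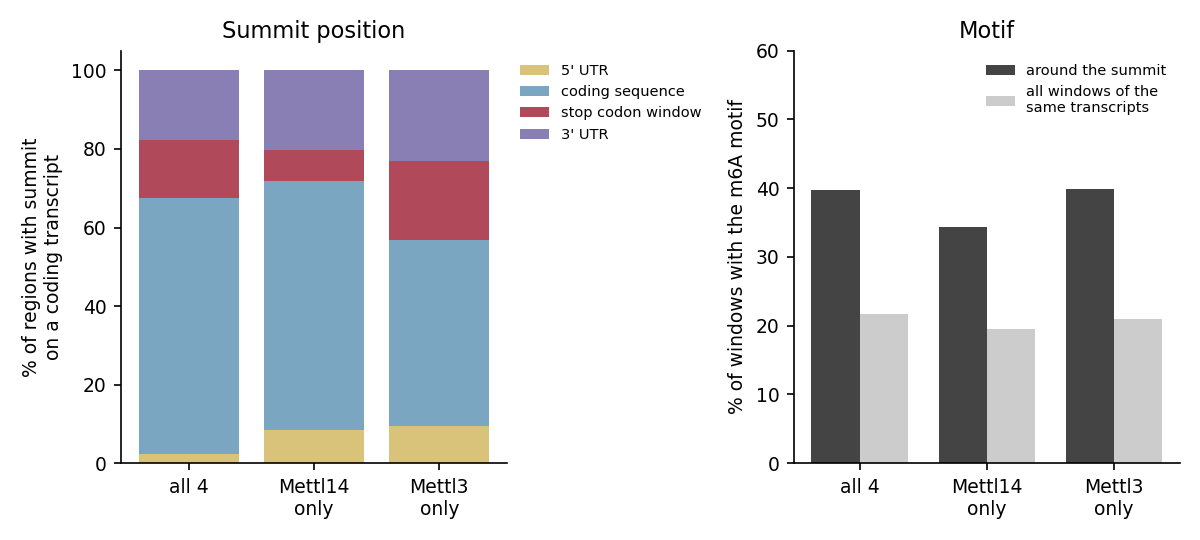
Left, share of summits on coding transcripts in the 5' UTR, coding sequence, stop codon window and 3' UTR, in percent, for regions in all 4 libraries and regions of 1 knockdown only. Right, percent of windows of 201 nt with the motif around the summit (dark) and over all windows of the same transcripts (light). The stop codon window held 7.9% of Mettl14-only and 20.1% of Mettl3-only summits.

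Of 23 genes of the m6A pathway itself, 14 had a listed peak. Of these, 9 (64.3%) were listed in all 4 libraries, against 43.5% of all listed genes. By gene, 0 of the 14 were of 1 knockdown only, against 4.92% of all listed genes. So few genes cannot show a difference from that share, and none was tested. The 9 were the writer subunits Wtap, Virma (named 1110037F02Rik in the tables), Rbm15, Rbm15b and Cbll1 and the readers Ythdf1, Ythdf2, Ythdf3 and Ythdc1. Wtap reached enrichments of 46.54 and 45.01 in the Mettl14 libraries against 22.08 and 23.80 in the Mettl3 libraries at its 3' UTR region. The Wtap groups did not overlap, with a difference of 1.06 on the log2 scale (SE 0.35). The difference did not pass (limma unadjusted p = 0.0269, Benjamini-Hochberg adjusted p = 0.998). Among all 2433 regions with a value in every library, groups did not overlap at 15.1% with Mettl14 higher. The reverse held at 16.4%. Tags at the Wtap region were 37 and 34 against 48 and 24. Ythdf1 had enrichments of 4.41 and 4.49 against 4.63 and 4.73, a difference of -0.01 (95% interval -0.88 to 0.86). Virma had 16.06 and 9.12 against 26.04 and 11.25, and Ythdf3 15.19 and 7.68 against 7.71 and 7.96. The region of Rbm15b was also assigned to Manf, and its summit lay outside annotated exons of both.

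Zc3h13, a subunit that keeps the writer complex in the nucleus, had a coding-sequence region with Mettl14 knockdown only, at 119 and 116 tags and enrichments of 5.73 and 6.44. A second Zc3h13 region was listed in both libraries of set 1 only, with 40 and 55 tags. The eraser Fto was listed with Mettl14 knockdown in set 2 (98 tags) and Mettl3 knockdown in set 1 (138 tags). The eraser Alkbh5 was listed with Mettl3 knockdown in set 2 alone, with 219 tags. Mettl4 was listed in 1 Mettl14 library (27 tags) and Igf2bp2 in 1 Mettl3 library (10 tags).

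**Figure D4:**
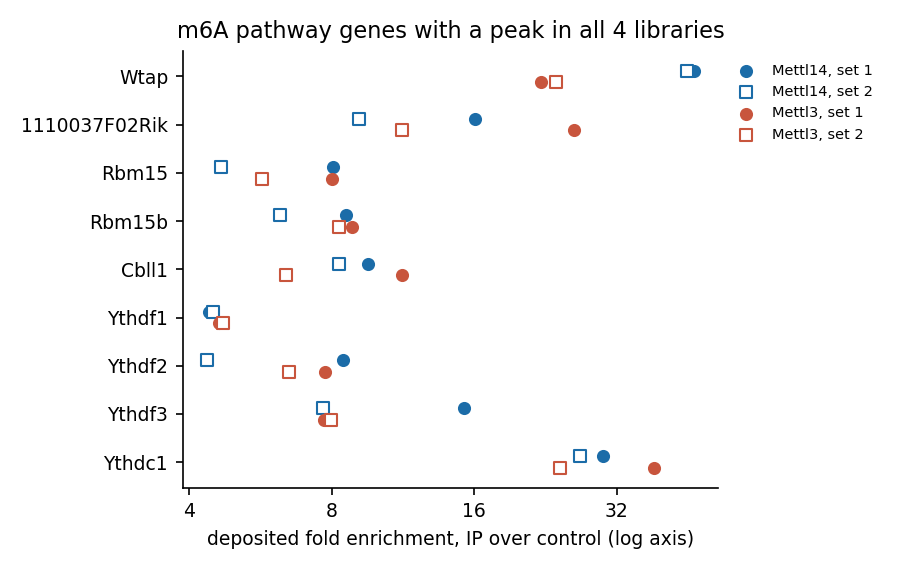
Deposited fold enrichment (log axis) at regions of m6A pathway genes listed in all 4 libraries, blue for Mettl14 and red for Mettl3 knockdown, filled circles for set 1 and open squares for set 2. The Wtap values of 46.54 and 45.01 lie to the right of 22.08 and 23.80, while those of Ythdf1 lie between 4.41 and 4.73. The difference at Wtap did not pass.

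The other gene lists held 0 to 4 genes of 1 knockdown only each, where 4.92% of all listed genes were of this class. The p53 and stress list had the most, at 4 of its 24 listed genes. Bcl2l1 and Atf3, a stress-induced transcription factor with 29 and 41 tags, were listed with Mettl14 knockdown only. Gadd45a, a growth arrest and DNA damage gene with 125 and 92 tags, was listed with Mettl3 knockdown only. Bcl2, a survival factor, was also listed with Mettl3 knockdown only, at a different region in each library with 7 and 5 tags. Wee1, an inhibitory kinase of mitotic entry with 94 and 129 tags, was 1 of 10 listed cell cycle genes and was listed with Mettl3 knockdown only. Mafa, a pancreatic transcription factor with 34 and 32 tags, was 1 of 14 listed mesoderm and endoderm genes, also with Mettl3 knockdown only. No other gene of these lists was of 1 knockdown only, nor was any of 19 listed ectoderm and neural genes or 5 listed trophectoderm genes. Presence in all 4 libraries, at 43.5% over all listed genes, ranged widely between lists. It held for 16 of 20 pluripotency genes (80.0%), 34 of 48 developmental signalling genes (70.8%), 26 of 39 chromatin regulators (66.7%), 3 of 5 trophectoderm genes and 14 of 24 p53 and stress genes (58.3%). It held for 9 of 19 ectoderm and neural genes (47.4%), 5 of 14 mesoderm and endoderm genes (35.7%) and 2 of 10 cell cycle genes. None of the pluripotency, developmental signalling or chromatin genes was of 1 knockdown only. At 4.92% over all listed genes, lists of this size can hold 0 without differing from that share, and no list was tested. No ribosomal protein gene of 39 had a listed peak.

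Enrichment was then compared at the 2433 regions with a value in every library, by limma on median-centred log2 fold enrichment. No region passed an adjusted p of 0.05 (0 of 2433, or 0%, smallest adjusted p 0.998). An unadjusted p under 0.05 was reached by 103 regions (4.23%), 52 higher with Mettl14 and 51 higher with Mettl3 knockdown. The median size of the log2 difference was 0.24, and 148 regions differed by at least 1. The 95% interval lay within 2 log2 units of 0 at 88.3% of regions and within 1 unit at 32.2%, so smaller differences could not be resolved at most regions. Both Mettl14 values lay above both Mettl3 values at 367 regions (15.1%), and the reverse held at 399 (16.4%). The difference between the knockdowns in set 1 was set against that in set 2 across the 2433 regions, which are not independent (Pearson 0.01, Spearman 0.06), and 51.7% had the same sign. The SD of the difference was 0.80 in set 1 and 0.61 in set 2, against 0.74 and 0.76 between the libraries of Mettl14 and Mettl3 knockdown.

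**Figure D5:**
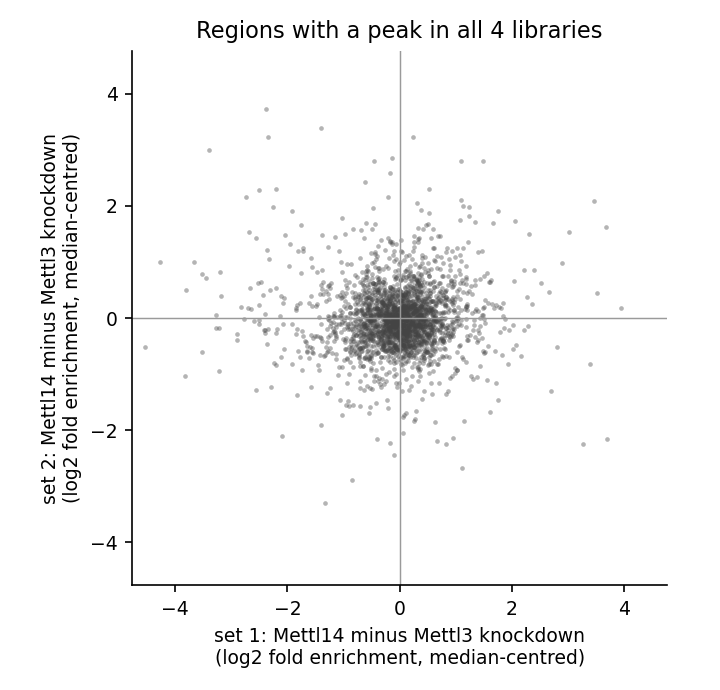
Difference in median-centred log2 fold enrichment between Mettl14 and Mettl3 knockdown at the 2433 regions listed in all 4 libraries, set 1 on the x axis and set 2 on the y axis, one point per region. The points form a cloud about 0 that is wider along x (SD 0.80) than along y (SD 0.61). Of the regions, 51.7% lay on the same side of 0 in both sets.

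The regions with the smallest p are given by their values, with none called changed. Hivep1, a zinc finger transcription factor, had enrichments of 97.06 and 76.79 with Mettl14 knockdown against 25.15 and 23.50 with Mettl3 knockdown (log2 difference 1.89, SE 0.30). Armc8, a subunit of a ubiquitin ligase complex, had 43.84 and 46.57 against 14.06 and 12.57 (1.83, SE 0.33). Pcdhac1, a protocadherin whose last exons are shared across its cluster, had a difference of 2.78. In the other direction, Slco5a1, a solute carrier, had 74.59 and 24.25 against 201.75 and 240.00 (-2.31, SE 0.52). Pknox2, a homeobox factor, had a difference of -1.92 and Pld1, a phospholipase, of -1.32. Regions without a gene at chr17:24864979-24865473 and chr2:156392031-156392335 had differences of 1.68 and 2.14, and those at chr5:3297468-3297853 and chr11:103090024-103090418 had -1.77 and -1.24. Groups of libraries did not overlap at any of these 10 regions, which were picked by p from these same values. Among all 2433 regions, they did not overlap at 15.1% with Mettl14 higher and at 16.4% with Mettl3 higher. Tags behind them ran from 8 to 96, and with log2 tags per kb in place of enrichment the sign turned at 7 of the 10. The other 3 shrank on that scale, Hivep1 to 0.035, the chr17 region to 0.12 and Armc8 to 0.44.

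The median over the 2433 regions was -0.02. Over the 45 developmental signalling regions the median log2 difference was -0.07, over 42 chromatin regulator regions -0.06, and over 16 pluripotency regions -0.04. Other medians were -0.30 over 13 ectoderm and neural, -0.17 over 5 trophectoderm, 0.15 over 4 mesoderm and endoderm, 0.17 over 14 p53 and stress and 0.22 over 2 cell cycle regions. The 9 m6A pathway regions had -0.05. No region of any list passed, and Wtap was the only list region with an unadjusted p under 0.05. Klf4, a pluripotency factor, had 10.90 and 7.90 against 11.81 and 10.32.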

How the data were processed

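Per the file headers, each of the 4 deposited tables joins the peaks of 1 knockdown IP with those of 1 scramble IP, every IP having been called separately by strand over a matching control. Tag counts per peak, the fold enrichment ratio, a score of minus 10 times log10 of the p-value and the FDR in percent were deposited by the authors and used as given. Per the submitters' processing notes, the tools were TopHat2 2.0.6, Bowtie 0.12.7, cutadapt 1.1, CASAVA 1.8.2, Picard 1.74 and SAMtools 0.1.18, with no role or order given, and the build was mm10. No source used here gives the peak caller's version.

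Peaks were deduplicated by position and chained into regions with pandas 2.3.3 (Python 3.11.15). A gene was listed in a library if any of its peaks named it. Of 4974 gene IDs, 4918 (98.9%) were in GENCODE M21. Where a library had several peaks in a region, the one with most tags gave its value. Enrichment was tested with limma 3.58.1 (R 4.3.3), Mettl14 against Mettl3, Benjamini-Hochberg adjustment over 2433 regions, and the script was tested on simulated data. Library values used an exact permutation test, and shares carry Wilson intervals. Named genes were the 12 per knockdown with the highest smaller tag count among genes and regions of that knockdown only, the 8 such regions in genes listed in all 4 libraries, the 5 smallest p per direction, list members of 1 knockdown only, and the m6A pathway. Alternatives changed matching, FDR, tag minimum, list length, scaling and libraries. Members, lists and rules were chosen with earlier results of these data known. The libraries without antibody were not analysed here.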

Additional observations from a re-analysis of the deposited data

Results flagged for a closer look

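The sign of the difference between Mettl14 and Mettl3 knockdown libraries turned between the sets for 4 library values, and with 1 library per knockdown in a set this was not tested. Mettl14 minus Mettl3 knockdown was 630 peaks in set 1 and -210 in set 2. For median peak width it was -44 nt and 31 nt, for median tags per peak -12 and 7, and for median deposited fold enrichment -1.4 and 0.9.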

How the results depend on the processing

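Counts of regions and genes of 1 knockdown only changed with the filter on peaks. With FDR at most 1% in all 4 libraries, 54 regions and 39 genes were Mettl14-only and 113 regions and 78 genes Mettl3-only. With that limit for presence and any listed peak for absence, 9 and 11 regions were left. Of the 12 named regions per knockdown, 0 for Mettl14 and 1 for Mettl3 remained under either rule. With at least 20 tags, 153 regions and 87 genes were Mettl14-only and 129 regions and 91 genes Mettl3-only, so by genes the larger count moved to Mettl3. With 4367 peaks per library, 203 regions and 129 genes were Mettl14-only and 187 regions and 124 genes Mettl3-only. At that list length, 8 of the 12 named regions per knockdown remained. Leaving out 1 library loosens the rule by construction and gave 424 to 1325 regions and 240 to 545 genes for Mettl14, and 273 to 885 regions and 168 to 496 genes for Mettl3. Shares without a peak of the other knockdown, in the order Mettl14 set 1, Mettl14 set 2, Mettl3 set 1, Mettl3 set 2, were 32.0%, 36.2%, 24.9% and 36.4% with 50% of the peak covered, and 24.3%, 34.4%, 24.2% and 33.4% with 4367 peaks per library. With FDR at most 1% they were 27.7%, 18.5%, 22.0% and 49.2%. The cause was not tested.

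In limma, 0 regions passed under all 13 alternatives, with a smallest adjusted p of 0.319 to 1 and 22 to 182 regions at an unadjusted p under 0.05. With set as a replicate block 0 passed, the smallest adjusted p was 0.857, and 68 regions were higher and 57 lower at an unadjusted p under 0.05. The set 1 minus set 2 difference within Mettl14 knockdown had a correlation of 0.11 with that within Mettl3 knockdown. It was taken across the 2433 regions, which are not independent, and no label ties a set to a shared culture. With log2 tags per kb, the difference turned to -0.13 at Pcdhac1, -0.28 at the chr2 region, 0.67 at the chr5 region, 0.22 at Pknox2, 0.093 at Slco5a1, 0.28 at Pld1 and 0.20 at the chr11 region. Depth was unknown, so absence from a list is not absence of the mark.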
